A study of Mus musculus with 32 samples.

Results

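Macrophages sorted from the epididymal fat of mice that lacked A20 in myeloid cells (KO) were compared with those of wild-type mice (WT), within the CD206+ population and after 12 weeks of high-fat diet (HFD). The comparison used 8 of the 32 bulk RNA-seq libraries of the series, 4 KO and 4 WT, chosen by their labelled genotype, diet and population and by no measured value. Both groups were C57BL/6J mice, and in both the sort took cells high for CD206 and low for CD11c. The other 24 libraries, which hold CD11c+ cells (low for CD206, high for CD11c) and mice on a standard diet (SD), entered the same fit and serve below only to show where CD206+ cells on HFD differed. The Cre driver behind the knockout is not named in the labels used here. Whether each of the 4 libraries in a group was made from another mouse is not stated in the labels; the p-values therefore rest on the variation among libraries, part of which may be technical.

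The product of Tnfaip3, A20, edits ubiquitin chains, is itself induced by NF-kB and shuts down signalling from TNF receptors, Toll-like receptors and the interleukin-1 receptor. It also restrains necroptosis and the inflammasome. CD206, encoded by Mrc1, is the mannose receptor, and in lean fat it marks resident macrophages that clear debris and support the tissue. In obese fat macrophages gather around dying adipocytes and switch on a lipid-associated programme of lipid uptake, lysosomal digestion and matrix remodelling, with Trem2, Gpnmb, Cd9 and Spp1 among its marker genes. Interferons act through STAT factors and interferon regulatory factors, which bind interferon-stimulated response elements and gamma-activated sites in promoters.

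The 8 libraries held 19427832 to 22008174 gene counts each, with 14994 to 15689 genes detected. Of the 24421 genes counted, 13453 were tested. Levels are given as CPM, a gene's count relative to the size of its library as scaled by edgeR's TMM method, and fold changes come from edgeR's quasi-likelihood test with Benjamini-Hochberg adjustment over all genes tested. A gene with an adjusted p under 0.05 is called changed, and a log2 fold change is positive where KO was higher. On the first principal component of the 8 libraries, with 53.8% of the variance, KO libraries lay between -45.7 and -41 and WT libraries between 36.5 and 47.3. No library of either group lay with the other.

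Loss of A20 changed 2930 genes (21.8% of those tested), 1408 of them higher in KO (10.5%) and 1522 lower (11.3%). At least a 2-fold difference was reached by 602 of the higher genes (4.47% of those tested) and 593 of the lower ones (4.41%), and at least an 8-fold difference by 85 and 104. Another 1097 called genes differed by less than 1.5-fold. The 4 KO and the 4 WT libraries did not overlap for 3444 genes (25.6% of those tested), of which 1179 were called higher and 1300 called lower. The median log2 fold change over all genes tested was 0. Counts of list members below are to be read against these shares of all genes, 10.5% higher and 11.3% lower. Among genes with a group mean of at least 10 CPM, Saa3, Irg1, Cfd, Gbp2b, Ccl5, Mmp9 and Cfb rose the most by fold. Among those that fell the most were Myh15, Nrcam, Dhrs9 and Pcdh7, which are in none of the gene lists used here, and Ctsk, Gpnmb and Mmp12.

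**Figure D1:**
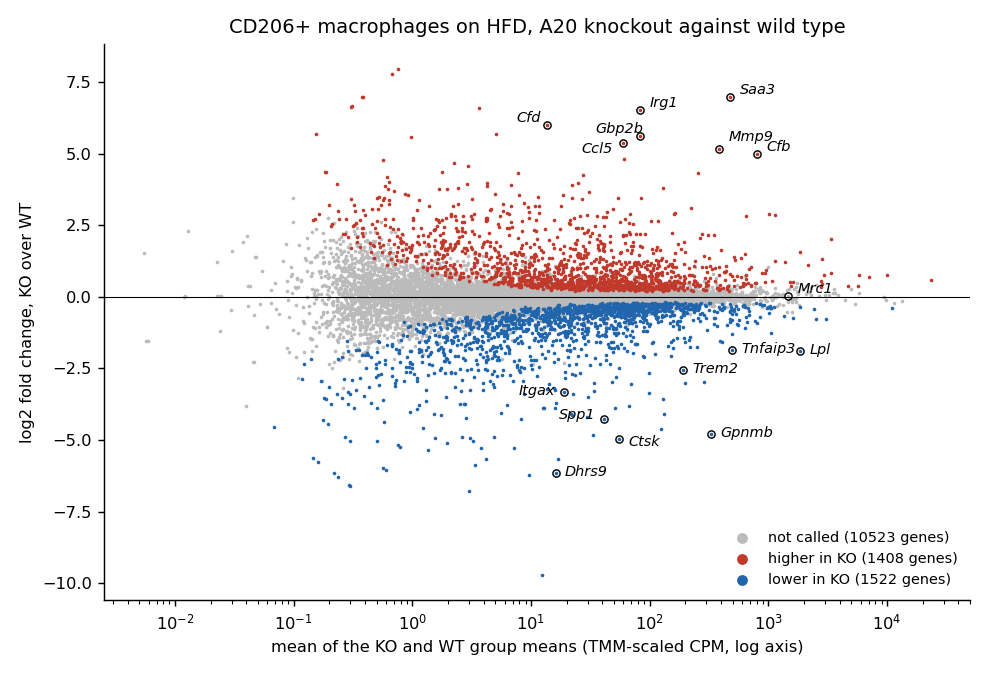
Log2 fold change of KO over WT (vertical axis) against the mean of the 2 group means in TMM-scaled CPM (horizontal log axis) for the genes tested, each point a gene. The 1408 genes called higher are red, the 1522 called lower are blue and the rest grey; Saa3, Irg1, Cfb and Mmp9 stand far above 0 and Gpnmb, Ctsk, Spp1 and Dhrs9 far below, while Mrc1 lies at 0.

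The targeted gene, Tnfaip3 (chromosome 10, bases 19000910 to 19015410, GRCm38.p6), checks the genotype labels. It measured 183, 218, 167 and 285 CPM in KO libraries 1 to 4 and 894, 691, 715 and 804 CPM in WT libraries 1 to 4. Every KO library lay below every WT library. The means were 213 ± 52.5 and 776 ± 92.5 CPM (SD, n = 4 each), a 3.64-fold lower level in KO (log2 fold change -1.86 ± 0.20 SE, edgeR adjusted p = 3.45e-08). A count over the whole gene does not show which exons remain, so the level left in KO libraries does not measure the deletion. In these bulk samples fewer cells of a type and less RNA per cell cannot be told apart.

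The promoter of Tnfaip3 is shown with those of Nfkbia and Cxcl10 because all 3 are textbook targets of NF-kB, the pathway that A20 restrains. Each line gives the 150 bases before the start that RefSeq's promoter table gives for the gene (GRCm38.p6), 5′ to 3′ on the gene's strand, with letters that match a kB site in capitals. The kB site was searched as GGGNNNTTCC on both strands, and it occurred in 5.56% of all 32851 RefSeq promoter windows of 300 bases. A match describes letters only and not a bound site. Only starts with a match in these 150 bases were shown, and Nfkbia and Cxcl10 were picked among genes with a match. The matches were therefore fixed in advance and are no result. Tnfaip3 lies on the minus strand (chr10:19015411-19015560), as do Nfkbia (chr12:55492648-55492797) and Cxcl10 (chr5:92348890-92349039).
Tnfaip3: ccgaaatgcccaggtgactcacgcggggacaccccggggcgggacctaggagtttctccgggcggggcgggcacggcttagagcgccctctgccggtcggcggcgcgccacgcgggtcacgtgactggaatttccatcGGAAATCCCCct
Nfkbia: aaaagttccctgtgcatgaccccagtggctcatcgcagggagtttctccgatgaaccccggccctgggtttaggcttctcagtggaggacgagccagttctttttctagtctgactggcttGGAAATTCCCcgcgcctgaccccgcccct
Cxcl10: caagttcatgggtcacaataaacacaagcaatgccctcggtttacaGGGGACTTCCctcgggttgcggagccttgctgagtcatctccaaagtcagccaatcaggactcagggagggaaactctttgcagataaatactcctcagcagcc
The matches end 3 bases before the start in Tnfaip3, 20 bases before it in Nfkbia and 95 bases before it in Cxcl10. Tnfaip3 was lower in KO, but it is the targeted gene, so its level does not show how targets of NF-kB moved. Nfkbia, which encodes the main inhibitor of NF-kB, measured 746, 792, 688 and 838 CPM in KO and 1054, 852, 877 and 855 CPM in WT. Its KO libraries all lay below its WT libraries by a small margin, and the difference did not pass the test (-0.25 ± 0.11, edgeR adjusted p = 0.114). Cxcl10, a chemokine for activated T cells, measured 128, 91.1, 48.5 and 188 CPM in KO and 40.5, 21.9, 37 and 22.4 CPM in WT (1.90 ± 0.42, edgeR adjusted p = 0.00112).

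Genes that work beside A20 rose in part. Of 23 partners and ubiquitin enzymes tested, 8 rose and 1 fell, 39.1% called against 21.8% of all genes. The median log2 fold change was 0.15. Tnip1, which binds A20 and polyubiquitin, rose from 27.7 ± 2.3 CPM in WT to 60.5 ± 8.18 CPM in KO (1.12 ± 0.13, edgeR adjusted p = 6.83e-08). The adaptor Traf1 rose by 1.51 ± 0.18, Traf2 by 0.74 ± 0.11, and the ubiquitin ligase Birc2 by 0.70 ± 0.12. The deubiquitinase Otulin, which removes linear ubiquitin, fell by 0.27 on the log2 scale, a call that was lost without KO library 1 or 4 or WT library 1 or 4 (edgeR adjusted p = 0.0535 to 0.164) and with only the 8 libraries in the fit (0.0793). Without KO library 2 only 5 of these 23 genes were called higher.

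NF-kB subunits, inhibitors and kinases were called in both directions. Of 19 tested, 4 rose and 2 fell (median 0.03). That is 31.6% called against 21.8% of all genes, of which 10.5% were higher and 11.3% lower. Relb, a subunit of the non-canonical pathway, rose from 69.5 ± 6.86 to 112 ± 16.6 CPM (0.69 ± 0.12), and the inhibitor Nfkbie rose by 0.72 ± 0.17. The kinase Ikbke rose by 1.10 ± 0.23. Of the canonical subunits, Rel fell by 0.52 on the log2 scale, and Rela did not pass the test (-0.16 ± 0.09, edgeR adjusted p = 0.215). Nfkb1 fell by 0.36 on the log2 scale, a call that was lost without KO library 2 or 3 or WT library 1 or 4 (edgeR adjusted p = 0.0672 to 0.15) and with only the 8 libraries in the fit (0.0623).

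The cytokine genes tested rose in part, and neither Tnf nor Il1b was among them. Tnf measured 201, 193, 160 and 347 CPM in KO and 273, 239, 202 and 290 CPM in WT. The 2 groups overlapped over most of their range (-0.15 ± 0.24, edgeR adjusted p = 0.719). Il1b stood at 215 ± 87.8 against 279 ± 134 CPM (-0.37 ± 0.31, edgeR adjusted p = 0.437). Of 28 cytokine genes tested, 10 rose and none fell, with a median of 0.43, against 10.5% of all genes called higher. These were low genes for the most part. Il27, a heterodimeric cytokine of the interleukin-12 family, stood at 3.71 ± 1.73 against 0.503 ± 0.324 CPM (2.86 ± 0.54), and its partner chain Ebi3 at 53.1 ± 2.83 against 30.6 ± 2.17 CPM (0.79 ± 0.11). Il12b, the shared chain of interleukins 12 and 23, had 37, 14, 78 and 169 raw counts in KO and 4, 6, 0 and 4 in WT, a difference called by edgeR and not by limma-voom (adjusted p = 0.107). Il18 rose by 1.04 ± 0.17 and its soluble inhibitor Il18bp by 2.74 ± 0.28. Il6 rose by 1.34 ± 0.40 with overlapping libraries, a call that was lost without KO library 4 (edgeR adjusted p = 0.0787), without WT library 4 (0.0528), with only the 8 libraries in the fit (0.0579) and by limma-voom (0.0874).

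Interferon-stimulated genes rose almost throughout. Of 61 antiviral genes tested, 54 rose and none fell, with a median log2 fold change of 1.20, against 10.5% of all genes called higher. Isg15, a ubiquitin-like modifier of proteins, measured 31.8, 29.1, 24.9 and 31.2 CPM in KO and 8.18, 3.7, 5.53 and 5.37 CPM in WT. No library overlapped, and the level was 5.12-fold higher in KO (2.36 ± 0.22, edgeR adjusted p = 2.95e-09). Ifi44 stood at 14.9 ± 3.7 against 0.721 ± 0.341 CPM (4.34 ± 0.42). Zbp1, a sensor of left-handed nucleic acid that can start necroptosis, rose by 2.61 ± 0.26. Ifit1, which binds foreign RNA ends, rose by 2.40 ± 0.30, though members of the Ifit, Oas and Slfn families share sequence and how reads shared among them were counted is unknown here. The cytosolic RNA sensors Ifih1 (1.39 ± 0.14) and Ddx58 (1.16 ± 0.17) rose as well. Members that missed the threshold were Ifitm1, Ifi27l2a, Slfn2, the adaptor Mavs and the endosomal receptors Tlr3, Tlr7 and Tlr9.

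Interferon-inducible GTPases attack the vacuoles that hold pathogens, and all 16 tested rose, with a median of 2.74. Gbp2b, a guanylate-binding protein, is not among these 16. It measured 211, 155, 84.6 and 199 CPM in KO and 2.08, 1.97, 7.86 and 1.33 CPM in WT. The lowest KO library lay more than 10 times above the highest WT library, which was WT 3 (5.63 ± 0.66, edgeR adjusted p = 1.31e-07). Irgm1, which steers the immunity-related GTPases, measured 189, 154, 128 and 212 CPM in KO and 61.3, 46, 71 and 44.8 CPM in WT (1.62 ± 0.27, edgeR adjusted p = 2.85e-05). Its groups did not overlap. Iigp1 stood at 242 ± 102 against 17.5 ± 3.92 CPM (3.79 ± 0.40), Gbp6 rose by 3.97 ± 0.41 and Gbp2 by 2.94 ± 0.37. The Gbp genes and the pair Tgtp1 and Tgtp2 are near-identical copies, so the split of counts within each family is uncertain.

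Of the factors that carry the interferon signal, 9 of 28 tested rose and none fell, against 10.5% of all genes called higher. Irf7, the master regulator of type I interferon production, measured 215, 250, 164 and 180 CPM in KO and 45, 21.9, 34.6 and 28.4 CPM in WT (2.64 ± 0.23, edgeR adjusted p = 7.87e-10). Every KO library lay above every WT library. Stat2 rose by 1.13 ± 0.13 and Irf9, its partner in the trimeric interferon factor, by 0.65 ± 0.13. Irf1 did not pass the test (425 ± 133 against 302 ± 59.3 CPM, edgeR adjusted p = 0.0825). None of the 7 receptors and kinases tested was called. The feedback inhibitor Socs1 rose by 1.24 ± 0.26, whereas Socs3 averaged 466 CPM in both groups (edgeR adjusted p = 1).

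Among interferons, Ifng was the only member tested. It measured 1.08, 1.29, 3.23 and 2.73 CPM in KO and 0.346, 0.0915, 0.0494 and 0.285 CPM in WT, from 181 raw counts in all 4 KO libraries and 17 in all 4 WT libraries. KO libraries were higher without overlap (3.38 ± 0.92, edgeR adjusted p = 0.00747). Genes of T cells, which make interferon gamma, moved with it. Of 17 T cell markers tested 13 were higher in KO and 1 lower, 82.4% called against 21.8% of all genes. Their median was 2.60, and their summed level ran from 92.8 to 202 CPM in KO and from 45.3 to 51.6 CPM in WT. Cd3e, a chain of the T cell receptor complex, measured 7.42, 4.95, 21.4 and 11.9 CPM in KO and 2.34, 0.64, 2.03 and 1.09 CPM in WT (2.90 ± 0.59, edgeR adjusted p = 0.000488). KO library 3 held the highest level of both Cd3e and Ifng. Among the KO libraries it also held the lowest level of Isg15, Irf7, Gbp2b, Irgm1, H2-K1, B2m, Cd274 and Cxcl10. Of 12 markers of natural killer and innate lymphoid cells 4 were higher and 1 lower, 41.7% called. Their sums were 52.9 to 96.2 CPM in KO and 70.9 to 82.6 CPM in WT. Their part in the interferon-stimulated genes was not tested.

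Promoters of 4 interferon-responsive genes are shown with the matches that interferon factors are known to read. They were chosen among named genes that hold a match, and only a start with a match was shown. A match in each line was therefore fixed in advance and is no result. The core of the interferon-stimulated response element was searched as GAAANNGAAA on both strands and occurred in 3.44% of the 32851 RefSeq windows. The gamma-activated site was searched as TTCNNNGAA, which reads the same on both strands, and occurred in 8.3%. Windows were found for 79.5% of the genes tested, under the 80% needed to compare sets of genes, so shares of called genes with a match would be void and none is given. Gbp2b (chr3:142594697-142594846) and Irf1 (chr11:53769864-53770013) lie on the plus strand, and Isg15 (chr4:156200819-156200968) and Irgm1 (chr11:48871421-48871570) on the minus strand. Capitals mark the response element core, or the gamma-activated site in Irf1.
Isg15: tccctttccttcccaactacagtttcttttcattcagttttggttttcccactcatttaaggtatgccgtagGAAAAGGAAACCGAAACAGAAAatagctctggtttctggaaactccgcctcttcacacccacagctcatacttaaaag
Irgm1: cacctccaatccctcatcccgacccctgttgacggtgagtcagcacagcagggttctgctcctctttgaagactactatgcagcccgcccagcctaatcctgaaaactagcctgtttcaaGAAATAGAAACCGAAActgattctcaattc
Gbp2b: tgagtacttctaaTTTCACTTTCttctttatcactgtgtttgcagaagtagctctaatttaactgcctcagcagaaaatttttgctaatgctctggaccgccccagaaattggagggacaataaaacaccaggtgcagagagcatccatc
Irf1: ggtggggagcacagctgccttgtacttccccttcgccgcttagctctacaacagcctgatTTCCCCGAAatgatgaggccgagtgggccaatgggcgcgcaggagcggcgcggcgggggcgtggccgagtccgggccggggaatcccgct
Isg15 holds 3 overlapping matches, which span bases 78 to 57 before the start, and Irgm1 holds 2, from base 30 to base 15. Gbp2b has its match on the opposite strand at bases 137 to 128, counted from a table start that lies inside the gene's RefSeq span, which begins at base 142594816 of chromosome 3. In Irf1 the gamma-activated site lies at bases 90 to 82.

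MHC class I genes, which display peptides from inside the cell, rose in 18 of 19 cases, with a median of 1.25. H2-K1, a classical class I heavy chain, measured 2759, 2964, 2249 and 3120 CPM in KO and 895, 818, 1207 and 802 CPM in WT. The highest WT library, WT 3, stayed well below the lowest KO library (1.58 ± 0.16, edgeR adjusted p = 1.46e-08), although reads shared among the H2 class I copies make the split between them uncertain. B2m, the light chain that all class I molecules share, measured 4012, 4589, 2910 and 4835 CPM in KO and 1650, 1371, 1859 and 1609 CPM in WT (1.33 ± 0.16, edgeR adjusted p = 2.20e-07). Nlrc5, the transactivator of class I genes, rose by 1.96 ± 0.23. The peptide transporter Tap1 rose by 1.85 ± 0.25, and the immunoproteasome subunits Psmb9 and Psmb8 by 1.76 ± 0.15 and 1.44 ± 0.11. Only H2-T10 missed the threshold. The B2m promoter (chr2:122147537-122147686, plus strand) is shown because it carries a response element core and a kB site 3 bases apart, both in capitals.
B2m: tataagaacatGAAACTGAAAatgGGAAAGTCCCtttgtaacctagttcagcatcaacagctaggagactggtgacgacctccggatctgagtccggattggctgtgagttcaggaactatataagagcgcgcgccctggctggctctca

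MHC class II genes rose less. Of 11 tested 8 rose and none fell, with a median of 0.60. Cd74, the invariant chain, stood at 28282 ± 3400 against 18766 ± 3106 CPM (0.59 ± 0.15), H2-Ab1 rose by 0.76 ± 0.13, and the class II transactivator Ciita by 0.55 ± 0.12. Co-stimulatory and checkpoint molecules rose in 6 of 11 cases and fell in 3. Cd274, which encodes the checkpoint ligand PD-L1, measured 78.4, 59.3, 40.2 and 105 CPM in KO and 13.5, 9.33, 8.15 and 9.79 CPM in WT. All KO libraries were higher (2.79 ± 0.34, edgeR adjusted p = 2.49e-07). Cd40 rose by 1.23 ± 0.16 and Cd80 by 1.21 ± 0.17, while Havcr2, which encodes the inhibitory receptor TIM-3, fell by 1.09 on the log2 scale.

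Acute-phase and complement genes held several of the largest changes. Of 20 tested 13 rose and none fell, with a median of 1.38. Saa3, a serum amyloid protein that macrophages make in inflammation, measured 712, 1251, 964 and 868 CPM in KO and 4.28, 5.53, 15.6 and 4.8 CPM in WT. The level was 126-fold higher in KO (6.98 ± 0.54, edgeR adjusted p = 9.8e-11), and WT 3 lay above the other 3 WT libraries. Cfb, complement factor B of the alternative pathway, measured 1462, 1609, 1481 and 1636 CPM in KO and 39.1, 43.7, 66.2 and 44.3 CPM in WT. KO libraries differed little among themselves and lay 32-fold above WT (5.0 ± 0.29, edgeR adjusted p = 8.24e-13). C3, the central complement protein, stood at 1132 ± 161 against 162 ± 92.5 CPM (2.81 ± 0.37). The copper carrier Cp, the haemoglobin scavenger Hp and the siderophore-binding protein Lcn2 rose by 3.12 ± 0.24, 2.25 ± 0.35 and 2.46 ± 0.52. C2, the protease that cleaves C3 in the classical pathway, and Cfp, which stabilises the alternative pathway's convertase, rose by 2.38 ± 0.27 and 1.26 ± 0.18.

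The promoter of Saa3 (chr7:46715677-46715826, minus strand) is shown because this gene rose the most among the genes named by fold. It was also picked for holding a match, here 1 response element core (capitals). The match lies at bases 125 to 116 before the table's start, which lies inside the gene's RefSeq span (chromosome 7, bases 46711998 to 46719615), so the window does not precede the whole gene.
Saa3: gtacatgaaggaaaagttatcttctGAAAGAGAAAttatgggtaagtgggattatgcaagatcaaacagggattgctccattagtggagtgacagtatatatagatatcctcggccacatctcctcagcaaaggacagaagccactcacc

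Cfd, the protease that activates factor B and a product of adipocytes, measured 45.2, 18.6, 30.4 and 13.8 CPM in KO and 0.692, 0.549, 0.247 and 0.143 CPM in WT (6.00 ± 0.54, edgeR adjusted p = 1.12e-09). Adipocyte markers moved with it: 10 of 15 tested, Cfd among them, were higher in KO and none lower (median 1.47), against 10.5% and 11.3% of all genes. Their sums were 158 to 309 CPM in KO and 68.8 to 136 CPM in WT. Adiponectin (Adipoq) stood at 5.07 ± 2.16 against 1.71 ± 0.808 CPM and leptin (Lep) at 2.86 ± 1.14 against 5.49 ± 2.79 CPM, the latter without passing the test. The part of adipocyte RNA in the level of Cfd was not tested.

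Of the enzymes that make itaconate, nitric oxide and arginine products 4 of 10 rose and none fell. Irg1 (also Acod1), which makes the antimicrobial metabolite itaconate, measured 186, 130, 72.8 and 272 CPM in KO and 2.12, 1.74, 2.42 and 0.856 CPM in WT. Levels within the KO group spread over more than 3-fold, and all of them lay far above WT (92.3-fold, 6.53 ± 0.71, edgeR adjusted p = 4.07e-08). The inducible nitric oxide synthase Nos2 stood at 10.5 ± 9.41 against 1.97 ± 0.533 CPM (2.42 ± 0.73), a call that was lost without KO library 4 (1.64 ± 0.73, edgeR adjusted p = 0.122) and by limma-voom (0.155). Arg1, a marker of alternative activation, did not pass the test (9.49 ± 3.6 against 5.64 ± 2.59 CPM, edgeR adjusted p = 0.44).

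Chemokines and chemoattractant receptors rose in 16 of 38 cases and fell in 6, with a median of 0.51. Over all genes tested 10.5% were called higher and 11.3% lower. The 38 include 12 receptors, of which 4 rose and 2 fell. Ccl5, which attracts T cells, measured 98.7, 85.2, 136 and 145 CPM in KO and 3.33, 1.92, 3.41 and 2.38 CPM in WT. The groups were far apart (42-fold, 5.39 ± 0.32, edgeR adjusted p = 1.22e-12), and T cells, whose markers were also higher, are known to make Ccl5 as well, to an extent not tested here. Cxcl13, the B cell attractant, stood at 483 ± 151 against 24 ± 24.2 CPM (4.33 ± 0.52), and Cxcl9, a T cell attractant induced by interferon gamma, at 87.1 ± 37.9 against 10.3 ± 6 CPM (3.08 ± 0.49). The monocyte attractants Ccl8 and Ccl7 rose by 2.89 ± 0.44 and 1.34 ± 0.25. The formyl peptide receptors Fpr1 and Fpr2, which sense bacterial and mitochondrial peptides, rose by 4.82 ± 0.50 and 4.26 ± 0.36. Among those that fell were Cxcl14 (-2.74 ± 0.40) and the neutrophil attractant Cxcl1 (-0.84 ± 0.22). The count of 6 lower chemokine and receptor genes was 3 or 4 whichever of the 8 libraries was left out.

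Cell death genes and sensors rose in part. Of 27 genes of the inflammasome and of cell death 11 rose and 2 fell, 48.1% called against 21.8% of all genes. The pore-former of necroptosis Mlkl rose by 1.46 ± 0.17, the death receptor Fas by 1.52 ± 0.21, Casp1 by 0.93 ± 0.10 and its pore-forming substrate Gsdmd by 0.72 ± 0.10. The survival gene Bcl2l1 fell by 0.93 on the log2 scale, and Nlrp3 did not pass the test (-0.32 ± 0.26, edgeR adjusted p = 0.417). Of 29 Toll-like receptors, adaptors, lectins and Fc receptors 10 rose and 4 fell, 48.3% called. Clec4e, which encodes Mincle, a receptor for dead cells and mycobacterial lipids, stood at 284 ± 87.1 against 38.1 ± 13.7 CPM (2.90 ± 0.32). Marco, a scavenger receptor for bacteria, measured 112, 81.2, 115 and 85.7 CPM in KO and 0.692, 3.43, 30.5 and 1.33 CPM in WT. WT 3 stood apart from the other WT libraries and still lay below every KO library (3.47 ± 0.62, edgeR adjusted p = 9.31e-05). Tlr13, a receptor for bacterial ribosomal RNA, fell by 1.06 on the log2 scale.

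**Figure D2:**
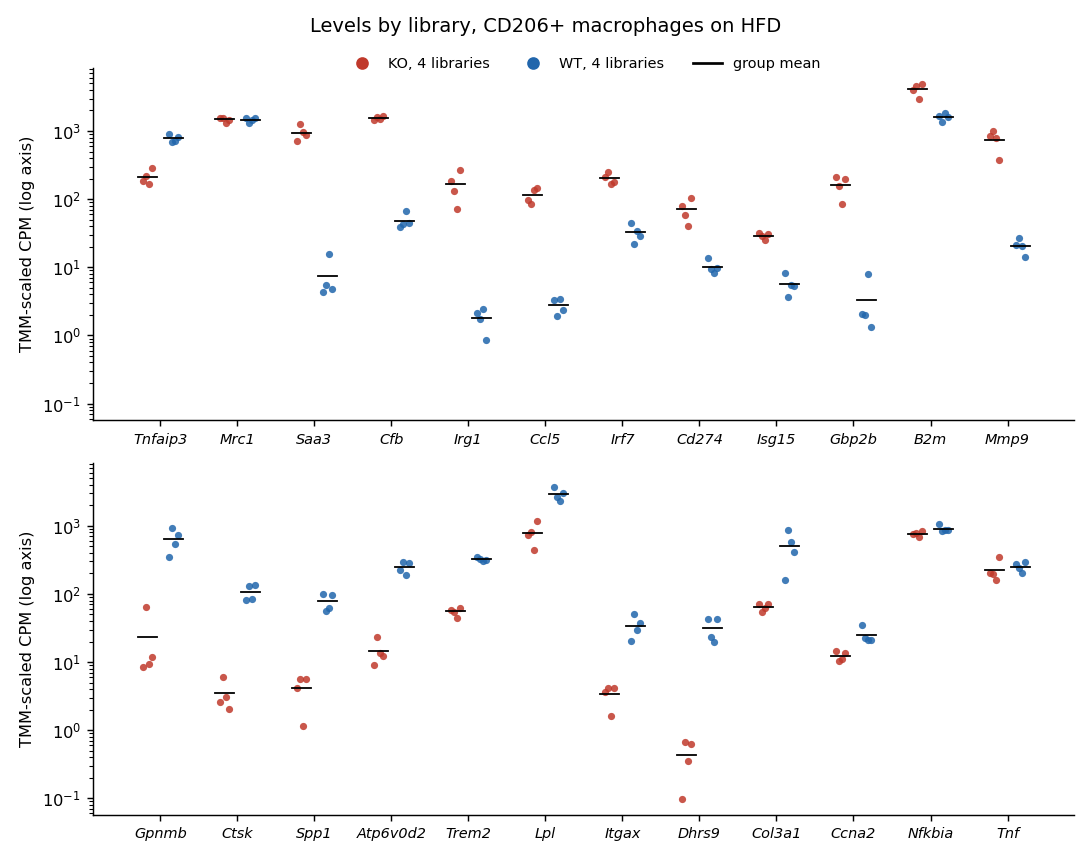
TMM-scaled CPM (vertical log axis) of 24 genes in the 8 libraries, with 4 KO libraries in red, 4 WT libraries in blue and a black line at each group mean. The upper row holds Tnfaip3, the sort marker Mrc1 and genes that were higher in KO; the lower row holds genes that were lower, and Nfkbia and Tnf, which did not pass the test.

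Lipid-associated macrophage genes fell. Of 40 tested 25 were lower in KO (11.3% of all genes were) and 4 higher, with a median log2 fold change of -0.77. Trem2, the lipid receptor that drives the programme, measured 58.9, 54.6, 44.7 and 62.9 CPM in KO and 349, 329, 304 and 319 CPM in WT. The level was 5.88-fold lower in KO, with a narrow spread in both groups (-2.56 ± 0.25, edgeR adjusted p = 4.13e-09). Gpnmb, which encodes a transmembrane glycoprotein found in foamy macrophages, measured 8.35, 63.5, 9.44 and 11.9 CPM in KO and 347, 932, 536 and 739 CPM in WT. KO library 2 stood above the other 3 KO libraries, and no KO library came near the lowest WT library (-4.78 ± 0.60, edgeR adjusted p = 4.28e-07). Spp1, the secreted matrix protein osteopontin, measured 4.23, 5.56, 1.14 and 5.68 CPM in KO and 99.1, 55.5, 62.4 and 96.3 CPM in WT (-4.25 ± 0.54, edgeR adjusted p = 5.34e-07). The tetraspanin Cd9 fell by 3.02 on the log2 scale and the galectin Lgals3 fell by 1.28. Among those that were higher, the receptor Cd300lf rose by 2.34 ± 0.56. Apoe (12761 ± 1570 against 14005 ± 1783 CPM, edgeR adjusted p = 0.68) and the Trem2 adaptor Tyrobp (579 ± 45 against 590 ± 20.3 CPM, edgeR adjusted p = 0.888) were not called.

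Genes of lipid uptake were lower as well. Of 37 genes of fatty acid uptake, storage and lipolysis 12 fell and 5 rose, against 11.3% and 10.5% of all genes. Of the 15 that act in uptake and activation 8 fell and 1 rose. Lpl, lipoprotein lipase, which frees fatty acids from circulating triglyceride, measured 724, 799, 437 and 1179 CPM in KO and 3701, 2680, 2307 and 3030 CPM in WT. The groups did not overlap, and the level was 3.73-fold lower in KO (-1.90 ± 0.24, edgeR adjusted p = 5.59e-07). The fatty acid translocase Cd36 stood at 1847 ± 312 against 3179 ± 599 CPM (-0.78 ± 0.19), and the fatty acid carrier Fabp5 fell by 1.96 on the log2 scale. The lipid-sensing receptor Pparg, which controls many of these genes, stood at 24.6 ± 5.83 against 73.5 ± 7.31 CPM (-1.58 ± 0.20). In contrast Acsl1 rose by 0.70 ± 0.19 and the desaturase Scd1 by 1.93 ± 0.43.

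Genes that burn fatty acids changed little in size. Of 45 oxidation genes and regulators 10 fell and 2 rose, against 11.3% and 10.5% of all genes, with a median of 0.00. The 26.7% called either way was near the 21.8% of all genes, but most of the called members fell. Both chains of the mitochondrial trifunctional protein fell, Hadha with a log2 fold change of -0.63 and Hadhb of -0.52. Cpt1a, which admits fatty acids to mitochondria, was not called (319 ± 42.1 against 325 ± 22.1 CPM, edgeR adjusted p = 0.937). Of 47 genes of cholesterol handling and synthesis 8 fell and 3 rose, which is 23.4% called and about the share over all genes. The exporter Abcg1 fell by 0.86 on the log2 scale, the esterifying enzyme Soat1 fell by 0.63, and only 1 of 20 synthesis genes was called. Without KO library 2, 3 or WT library 4, the count of 8 lower cholesterol genes became 4, 5 and 5.

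Of 62 lysosomal genes tested, 18 fell and 6 rose, against 11.3% lower and 10.5% higher over all genes. Ctsk, a collagen-degrading cathepsin, measured 2.6, 6.08, 3.1 and 2.04 CPM in KO and 81.7, 129, 84.7 and 134 CPM in WT (-4.97 ± 0.55, edgeR adjusted p = 5.21e-08). It was 31.3-fold lower in KO. Atp6v0d2, a proton pump subunit of fused and lipid-laden macrophages, measured 8.94, 23, 13.7 and 12.4 CPM in KO and 228, 295, 192 and 282 CPM in WT (-4.10 ± 0.37, edgeR adjusted p = 1.11e-09). The acid lipase Lipa had a log2 fold change of -0.93 and Tfeb, a transcription factor of lysosomal genes, of -0.50. Only 5 of the 16 proton pump genes tested fell and none rose. The cathepsins Ctsh (0.83 ± 0.12) and Ctsc (0.56 ± 0.10) rose.

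Matrix proteases and their inhibitors moved in both directions, 4 of 19 higher and 8 lower, 63.2% called against 21.8% of all genes. Mmp9, a gelatinase, measured 841, 997, 780 and 370 CPM in KO and 21.1, 26.9, 20.4 and 14 CPM in WT. KO library 4 was the lowest KO library and lay far above WT (36.2-fold, 5.18 ± 0.42, edgeR adjusted p = 2.35e-10). The membrane-anchored proteases Mmp25 and Mmp14 rose by 3.90 ± 0.46 and 1.78 ± 0.40. Mmp12, the macrophage elastase, stood at 9.84 ± 10.4 against 237 ± 112 CPM (-4.61 ± 0.59), and Adam8 at 20 ± 6.87 against 238 ± 47.9 CPM (-3.57 ± 0.26). Mmp3 had 3, 0, 0 and 1 raw counts in KO and 83, 112, 164 and 144 in WT, too few in KO for a fold.

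Stromal transcripts fell with these proteases. Of 20 stromal and preadipocyte markers tested 15 were lower in KO and 1 higher, against 11.3% and 10.5% of all genes. Their median was -1.62. Col3a1, a fibrillar collagen of fibroblasts, measured 72.3, 54.2, 61.2 and 72.2 CPM in KO and 159, 880, 579 and 407 CPM in WT (-2.96 ± 0.50, edgeR adjusted p = 3.85e-05). WT libraries spread widely, and WT 1 was the nearest to KO. The summed level of the list ran from 913 to 1825 CPM in KO and from 912 to 3192 CPM in WT. Mmp2 and Mmp3, which fibroblasts make, fell with this list, and its part in their change was not tested.

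Resident and alternatively activated macrophage genes moved both ways, 11 of 36 higher and 6 lower, against 10.5% and 11.3% of all genes. Of the 17 alternative activation genes among them 5 rose and 4 fell. Pparg and Cd36, given above with lipid uptake, were among the 6 that fell. Mrc1, the gene of the sort marker, measured 1567, 1553, 1329 and 1463 CPM in KO and 1532, 1290, 1435 and 1575 CPM in WT, with overlapping libraries (0.02 ± 0.11, edgeR adjusted p = 0.931). Timd4, a receptor for dying cells on long-lived resident macrophages, stood at 40.3 ± 15.7 against 7.62 ± 5.28 CPM (2.41 ± 0.42). The lectin Clec10a rose by 0.79 ± 0.17 and coagulation factor F13a1 by 0.77 ± 0.21. Retnla, a secreted marker of alternative activation, measured 3471, 1036, 1561 and 1699 CPM in KO and 716, 1022, 933 and 653 CPM in WT. The groups did not overlap by a narrow margin, and KO library 1 lay above the rest (1.22 ± 0.41, edgeR adjusted p = 0.0318). The call for Retnla was lost without KO library 1 (0.78 ± 0.41, edgeR adjusted p = 0.207), WT library 1 (1.17 ± 0.46, 0.079) or WT library 4 (1.15 ± 0.46, 0.0818). Lyve1 (327 ± 89.4 against 159 ± 58.4 CPM, edgeR adjusted p = 0.0896) and Cd163 (235 ± 95.3 against 239 ± 45.3 CPM, edgeR adjusted p = 0.975) were not called.

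Of 14 core macrophage genes tested 1 rose and 2 fell, which is 21.4% called and near the 21.8% of all genes. Adgre1, which encodes F4/80, stood at 1526 ± 215 against 1641 ± 132 CPM, Csf1r at 3965 ± 156 against 3834 ± 200 CPM and Lyz2 at 10706 ± 1806 against 12376 ± 1098 CPM, none of them called. Cd68 fell by 0.55 on the log2 scale, and Sirpa, given below with dendritic cell markers, fell as well. Itgax, which encodes CD11c, measured 3.64, 4.17, 1.62 and 4.22 CPM in KO and 20.7, 50.3, 29.5 and 37 CPM in WT. It was 10.1-fold lower in KO within a sort that took cells low for CD11c (-3.34 ± 0.34, edgeR adjusted p = 1.34e-08). Of 16 integrin genes 5 fell and 3 rose, 50% called against 21.8% of all genes. The vitronectin receptor chains Itgav and Itgb5 had log2 fold changes of -1.70 and -1.55. The leukocyte integrin chains Itgal and Itgb7 rose by 2.95 ± 0.34 and 2.48 ± 0.32. T cells also carry both of these chains, and their part in the 2 values was not tested.

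Of 44 cell cycle genes tested, 24 fell and 1 rose, against 11.3% and 10.5% of all genes, with a median of -0.59. Ccna2, a cyclin of replication and mitosis, measured 14.3, 10.3, 11.2 and 13.5 CPM in KO and 34.9, 22.8, 20.9 and 21.1 CPM in WT. WT 1 stood above the other WT libraries, and the groups did not overlap (-1.01 ± 0.20, edgeR adjusted p = 0.000318). The mitotic kinesin Kif11 fell by 1.15 on the log2 scale. Mki67 was not called (27.8 ± 5.62 against 35 ± 6.74 CPM, edgeR adjusted p = 0.483), and the D-type cyclin Ccnd2 rose by 1.79 ± 0.24. Without WT library 1 the count of lower genes was 15.

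Of 77 oxidative phosphorylation and citric acid cycle genes 6 rose and none fell (median 0.14), a share below the 10.5% of all genes called higher. Cox5a, a subunit of complex IV, rose by 0.46 ± 0.09, the largest change among the 6. With only the 8 libraries compared in the fit the count was 14, with genes down to 1 count kept it was 3, and without KO library 2 or WT library 3 it was 3. Of 37 genes of glycolysis and the hypoxia response 8 rose and 2 fell, which is 27% called against 21.8% of all genes. The lactate exporter Slc16a3 rose by 1.39 ± 0.30. Without KO library 1, KO library 4 or WT library 4 the count of higher genes was 4, 4 and 5.

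**Figure D3:**
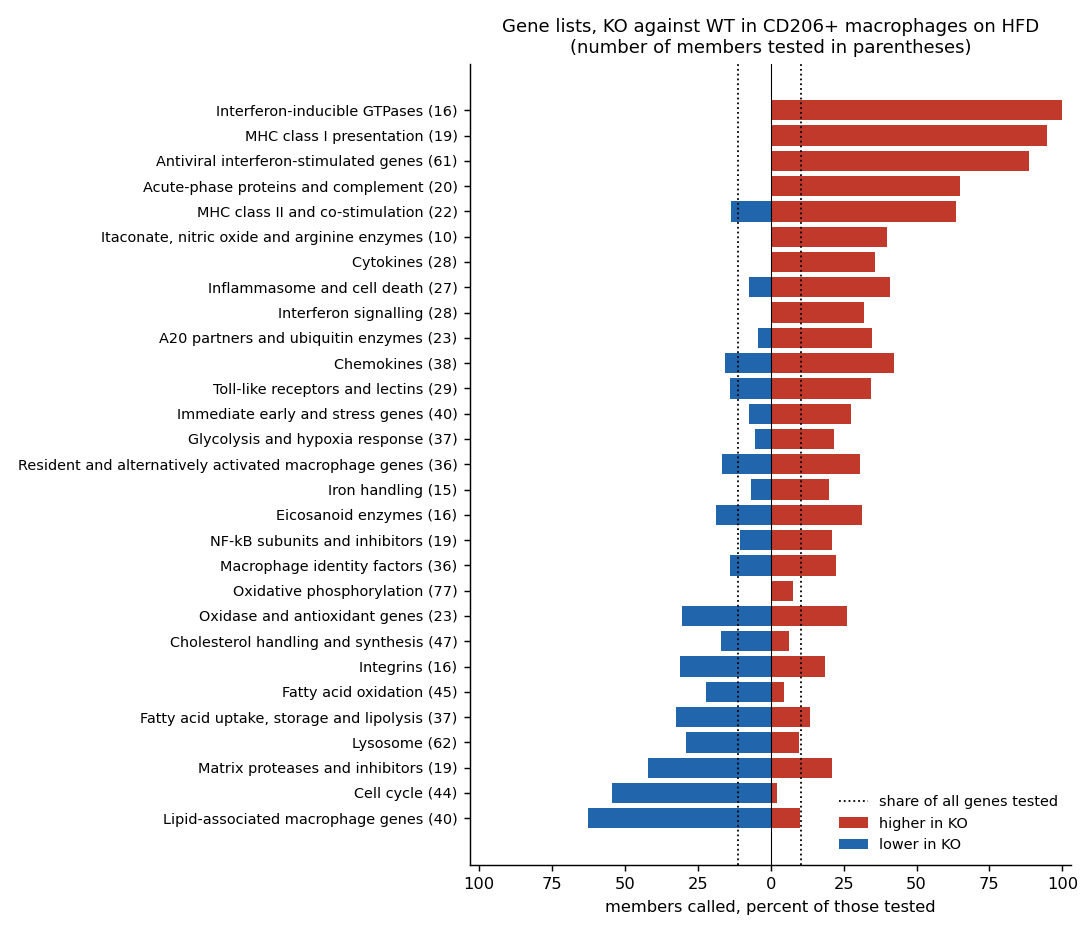
Share of the members tested that were called higher (red, to the right) or lower (blue, to the left) in KO, in percent, for 29 gene lists, with the number tested in parentheses. Dotted lines mark the shares over all genes tested, 10.5% higher and 11.3% lower; the lists of interferon-inducible GTPases, MHC class I and antiviral genes reach furthest to the right, and the lipid-associated list furthest to the left.

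Of 8 neutrophil markers tested 4 were higher and none lower, against 10.5% and 11.3% of all genes. Their sums were 82.1 to 101 CPM in KO and 27.3 to 52.1 CPM in WT. Genes near the floor, such as S100a8, Ngp and the markers under the filter, held little of these sums, which rest mostly on other members. S100a8, which neutrophils hold in abundance, stood at 1.09 ± 0.444 against 0.199 ± 0.138 CPM, a call that was lost without WT library 2 (edgeR adjusted p = 0.054). Ngp, a granule protein, had 6, 29, 3 and 11 raw counts in KO and 0 in each WT library, a call that was lost without KO library 2 (edgeR adjusted p = 0.0514) and by DESeq2 (0.12). Of 16 monocyte markers 7 were higher and none lower, with sums of 2324 to 4252 CPM in KO and 2071 to 2589 CPM in WT. Ly6c2, which marks classical monocytes, stood at 12.3 ± 2.36 against 1.35 ± 0.879 CPM (3.19 ± 0.53), and Plac8, also abundant in those cells, rose by 3.18 ± 0.46. None of the 11 B cell, 14 endothelial and 10 mesothelial markers tested was called. Their part in the results above was not tested.

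**Figure D4:**
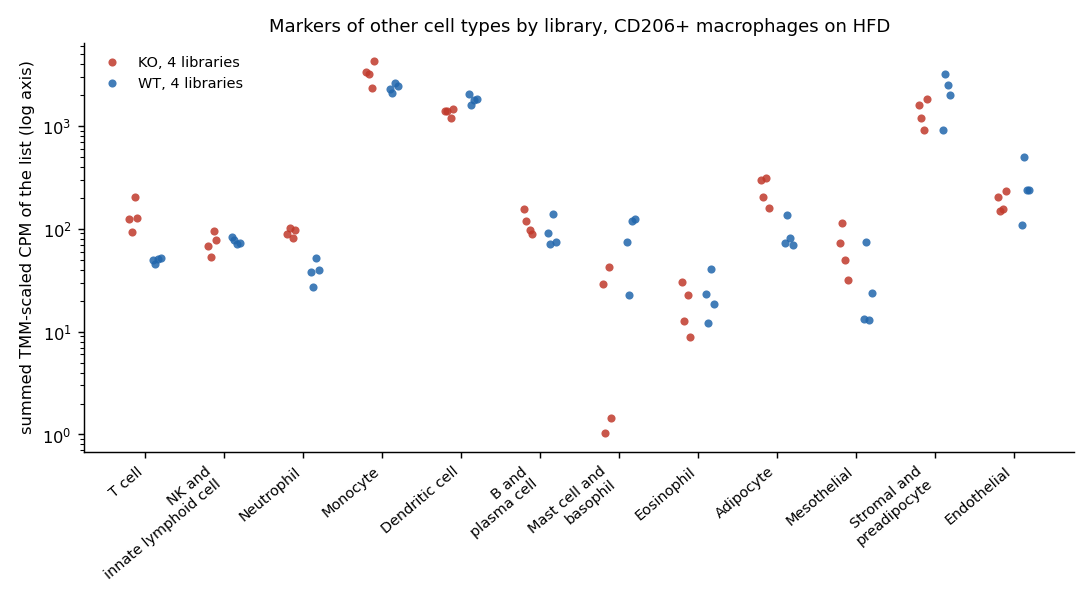
Summed TMM-scaled CPM (vertical log axis) of 12 marker lists of other cell types in the 4 KO (red) and 4 WT (blue) libraries. T cell, neutrophil and adipocyte sums lie higher in KO without overlap, from 92.8 to 202 CPM in KO against 45.3 to 51.6 CPM in WT for T cells, the dendritic cell sum lies lower in KO without overlap (1199 to 1465 CPM against 1590 to 2033 CPM), and the sums of the stromal and endothelial lists overlap.

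The same genotype comparison on SD, in libraries that share none with the HFD comparison, called 3300 genes (24.5% of those tested), 1594 higher (11.8%) and 1706 lower (12.7%), the latter count being 1120 without KO SD library 4. Of the 1408 genes higher on HFD 673 were also higher on SD (47.8% of them and 42.2% of the genes higher on SD) and 65 were lower. Of the 1522 genes lower on HFD 454 were also lower on SD (29.8% of them and 26.6% of the genes lower on SD) and 87 were higher. Many interferon genes and part of the acute-phase genes differed between genotypes on both diets. On SD 50 of the 61 antiviral genes were higher in KO. Of the 20 acute-phase and complement genes 10 were higher on SD and 1 lower. The interaction of genotype with diet was more positive on HFD for 4 of these 20 and more negative for 1, and for 3 and 1 of the antiviral genes. The median of the 13 complement genes was 1.06 on HFD and 0.29 on SD. Saa3 had a log2 fold change of 7.04 on SD and 6.98 on HFD, Isg15 2.15 and 2.36, B2m 1.34 and 1.33. For these 3 genes the interaction of genotype with diet was not called (edgeR adjusted p = 0.965, 0.716 and 0.989).

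Lipid-associated genes differed between the diets in their response to genotype. The interaction test called 1595 genes (11.9% of those tested), 703 with a more positive effect on HFD (5.23%) and 892 with a more negative one (6.63%). It uses the HFD libraries described above, so it is not a separate sample. Of the 40 lipid-associated genes 24 had a more negative effect on HFD. On HFD Gpnmb had means of 23.3 (KO) and 638 CPM (WT), and 9.46 and 4.83 CPM on SD, an interaction of -5.74 ± 0.83 (edgeR adjusted p = 2.29e-05). WT cells on HFD were the high group, and the 2 KO groups lay nearer to WT cells on SD. Lpl averaged 785 and 2929 CPM on HFD and 1081 and 625 CPM on SD, so the sign of the genotype difference turned (-2.69 ± 0.34, edgeR adjusted p = 3.77e-06). Trem2 was lower in KO on both diets, with log2 fold changes of -2.56 on HFD and -0.87 on SD. Dhrs9, a retinol dehydrogenase, measured 0.0983, 0.67, 0.349 and 0.636 CPM in KO and 42.3, 23, 19.4 and 42.4 CPM in WT on HFD, and on SD it averaged 0.97 and 1.28 CPM (interaction -5.76 ± 0.61, edgeR adjusted p = 3.47e-07). Among genes with the smallest p, Tlr13 averaged 124 and 258 CPM on HFD against 113 and 48.8 CPM on SD.

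The opposite pattern appeared for genes that WT cells held at a high level on SD. Sema4a, a semaphorin that acts on T cells, measured 636, 576, 573 and 503 CPM in KO and 110, 130, 152 and 124 CPM in WT on HFD, and on SD it averaged 622 and 506 CPM (interaction 1.85 ± 0.25, edgeR adjusted p = 8.90e-06). Mmp9 averaged 911 and 375 CPM on SD against 747 and 20.6 CPM on HFD (3.90 ± 0.52, edgeR adjusted p = 8.37e-06). On SD Retnla had means of 1682 (KO) and 11727 CPM (WT), the reverse of its order on HFD (4.03 ± 0.60, edgeR adjusted p = 3.71e-05). Of the 36 resident and alternatively activated genes 17 had a more positive effect on HFD. Tspan32, a tetraspanin of blood cells, averaged 112 and 23 CPM on HFD and 102 and 87.6 CPM on SD. In Sema4a, Mmp9 and Tspan32 the 2 KO means were close to each other, and the WT means differed between the diets. Adipocyte markers, with 8 more positive interactions among the 15 tested, moved with these genes, and their part was not tested.

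**Figure D5:**
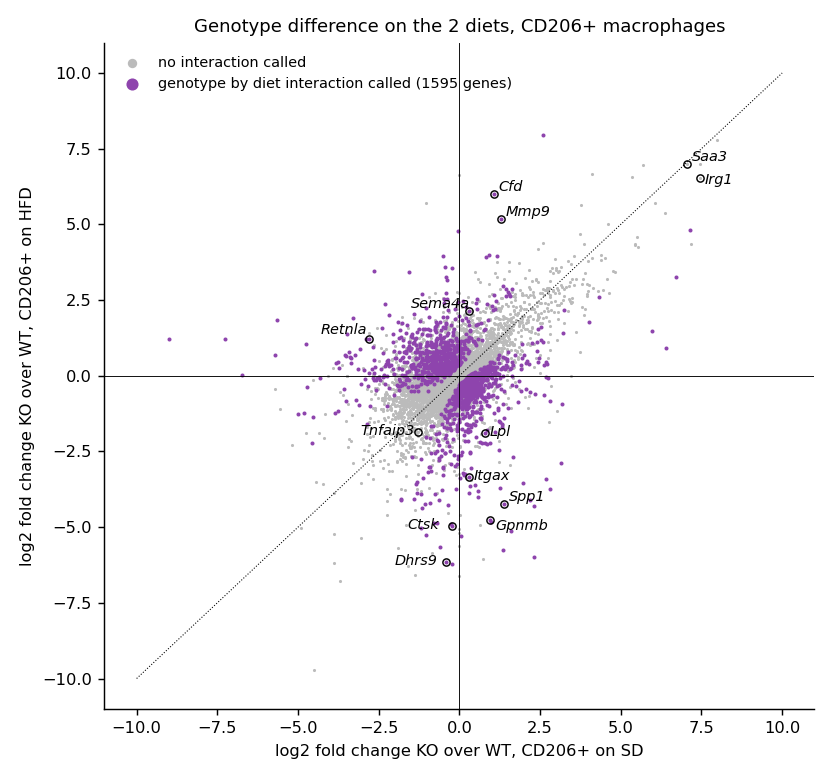
Log2 fold change of KO over WT in CD206+ macrophages on HFD (vertical axis) against that on SD (horizontal axis), each point a gene, with the 1595 genes called for the genotype by diet interaction in purple and the rest in grey. Saa3, Irg1 and Tnfaip3 lie near the dotted line of equal effects, while Gpnmb, Spp1, Lpl, Itgax and Dhrs9 lie below it and Mmp9, Cfd, Sema4a and Retnla above it.

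CD11c+ macrophages on HFD differed between genotypes for 5116 genes (38% of those tested), 18.6% higher and 19.4% lower. Their libraries are others than the CD206+ ones, but the labels do not say whether both came from the same mice, and same-numbered WT libraries of the 2 populations deviated together (correlations 0.228 to 0.468), so the overlap is not independent evidence. Of the genes called in CD206+ cells 1061 of the 1408 higher ones were higher there too (75.4% of them and 42.4% of those higher in CD11c+ cells), and 1105 of the 1522 lower ones were lower (72.6% of them and 42.3%). The interaction of genotype with population called 586 genes (4.36% of those tested). Itgax had a log2 fold change of -3.34 in CD206+ and -0.71 in CD11c+ cells (interaction -2.63, edgeR adjusted p = 0.000844), from 320 to 196 CPM in the latter. Adam8 averaged 20 and 238 CPM in CD206+ cells and 355 and 827 CPM in CD11c+ cells (interaction -2.35 ± 0.33, edgeR adjusted p = 0.000221). Without KO CD206+ library 3, KO CD11c+ library 2 or WT CD11c+ library 1, the count of 586 became 306, 354 and 316, and with the replicate number as a block it was 1209.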

How the data were processed

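Bulk RNA-seq libraries of sorted adipose tissue macrophages were grouped by genotype, diet and population from their labels. Per the submitters' processing notes, the tools were TopHat2 2.1.0, SAMtools 0.1.18, Trimmomatic 0.35 and FastQC 0.11.4, with the mouse build mm10 (GRCm38). For the counter, annotation and strand setting nothing is stated in the labels. The authors deposited raw whole-number gene counts. The 5 entries that name no gene stayed out of every total and test (reads outside genes 7.42% to 9.66% and ambiguous reads 1.1% to 1.33% in the 8 libraries).

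All 32 libraries, in 8 groups, entered 1 edgeR 4.0.16 quasi-likelihood fit (R 4.3.3) after filterByExpr with a minimum count of 10 and TMM scaling. P-values were adjusted within each of 5 contrasts: KO against WT in CD206+ cells on HFD and on SD, the same in CD11c+ cells on HFD, and the interactions with diet and population. Counts of 13453 genes were also simulated for the HFD contrast in CD206+ cells, with a true difference set for a small part of them. The simulated counts were drawn from each gene's mean over all libraries and the spread that the fit estimated. The test picked out 73% at a true 2-fold difference, 94% at a 4-fold one and 0.0309% where none was set. How many genes stand behind each rate is not given here. The rates describe the simulated counts only and do not measure how many real changes were missed. No 2 replicates agreed within sampling noise (chi-square per degree of freedom of 17.8 or more).

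The 44 lists (29 of pathways and states, 15 of markers or checks) hold 1081 symbols, of which 1016 were tested. The genes, lists and comparison were chosen with earlier results of these data known. Named were Tnfaip3 and sort or lineage genes; up to 15 genes each way with the largest fold change, at least 10 CPM and no overlap; up to 10 with the largest CPM difference; up to 5 list members with the largest change, or others for their role; and up to 8 per interaction and direction. Some that the rule allows are not reported here. Alternatives were DESeq2 1.42.0, limma-voom (limma 3.58.1), other size factors, other count filters, a fit with only the groups compared, a replicate block and leaving out each library. Promoters and coordinates are from RefSeq (GRCm38.p6).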

Additional observations from a re-analysis of the deposited data

Results flagged for a closer look

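Over the 32 genes printed library by library, 64 groups of 4 libraries were searched for a library whose gap to its nearest neighbour took up most of the group's range, and 6 were found. Chance finds about 1 in 20 such groups. In WT the highest library stood apart for Saa3 (15.6 CPM, WT 3), Gbp2b (7.86 CPM, WT 3), Marco (30.5 CPM, WT 3), Nfkbia (1054 CPM, WT 1) and Ccna2 (34.9 CPM, WT 1). In KO it did so for Gpnmb (63.5 CPM, KO 2).

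The effect of genotype differed between the diets by the interaction test for 1595 genes. Of the 32 genes 12 were among them. The interaction, on the log2 scale and positive where KO was relatively higher on HFD, was 4.94 for Cfd (edgeR adjusted p = 8.48e-06), 4.03 for Retnla, 3.90 for Mmp9, 1.85 for Sema4a, -1.69 for Trem2, -2.69 for Lpl, -3.49 for Atp6v0d2, -3.63 for Itgax, -4.75 for Ctsk, -5.62 for Spp1, -5.74 for Gpnmb and -5.76 for Dhrs9. The effect differed between CD206+ and CD11c+ cells on HFD for 586 genes, and 3 of the 32 were among them: Itgax at -2.63, Dhrs9 at -3.03 and Ccna2 at -1.30.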

How the results depend on the processing

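The KO against WT count of 2930 genes ran from 2693 without a count filter to 3168 with DESeq2 over the 7 alternative fits, and from 2475 to 2676 with 1 library left out. Of the 2930 calls 80.7% to 99.6% were made again in the same direction and 0 in the opposite one. The 177 named genes and 21 named interactions gave 3133 gene and setting pairs, of which 3059 kept direction and side of the threshold, 24 lost the call, 13 gained one, 0 reversed and 37 changed sign without a call. The 21 interactions stayed on their side of the threshold in every fit that gave a value, and among those not called B2m and Saa3 changed sign in some.

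The replicate number, which the labels do not tie to a mouse or batch, was tried as a block. KO and WT libraries of the same number did not deviate together (correlations -0.088 to 0.085), whereas CD206+ and CD11c+ libraries of the same number did in WT (0.228 to 0.468) but not throughout in KO (-0.049 to 0.333), so that each WT library, but not each KO library, correlated best with its own number. With the block the counts were 3050 (HFD), 3390 (SD), 5207 (CD11c+), 1808 (diet interaction) and 1209 (population interaction, against 586).

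With 1 library left out, the population interaction ran from 306 to 700, the diet interaction from 1225 to 1709 and the genes lower on SD from 1120 to 1685. List counts ran from 5 to 8 for A20 partners higher and from 3 to 4 for chemokines and receptors lower. They ran from 4 to 8 for cholesterol genes lower and from 3 to 8 for oxidative phosphorylation higher. Glycolysis and hypoxia genes higher ran from 4 to 9 and cell cycle genes lower from 15 to 26. Stress genes higher ran from 5 to 11, and oxidase and antioxidant genes lower from 4 to 7. Oxidative phosphorylation genes called higher numbered 3 without a count filter and 14 with only the 8 libraries. The causes were not tested. Genes with counts too low for the filter were not tested, so a change in them was not detectable at this depth.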

Other observations

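Over all genes tested 10.5% were called higher and 11.3% lower, and the following lists were not described above. Of 16 enzymes and receptors of prostaglandins and leukotrienes 5 rose in KO and 3 fell. The inducible cyclooxygenase Ptgs2 stood at 108 ± 67.7 CPM in KO and 34.4 ± 16.3 CPM in WT (log2 fold change 1.64 ± 0.42, overlapping libraries), while Hpgds, which makes prostaglandin D, fell by 1.19 on the log2 scale and Hpgd, which breaks prostaglandins down, fell by 1.42. Of 6 tested genes of the NADPH oxidase, which makes superoxide, 4 rose and none fell, among them Ncf4 (0.68 ± 0.11). Of 17 antioxidant genes 7 fell and 2 rose. Those that fell included the sulfiredoxin Srxn1 (-1.02 ± 0.18), and those that rose were Prdx5 (1.57 ± 0.17) and the mitochondrial superoxide dismutase Sod2 (1.04 ± 0.22). Without WT library 4 the count of lower oxidase and antioxidant genes was 4. Of 40 immediate early and stress genes 11 rose and 3 fell. The heat shock genes Hspa1a and Hspa1b rose by 1.13 ± 0.31 and 1.54 ± 0.38, though these near-identical copies cannot be told apart by shared reads, and the call for Hspa1a was lost without KO library 1 (0.77 ± 0.30, edgeR adjusted p = 0.0734). Without that library the count of higher genes in the list was 5. Of 15 genes of iron handling 3 rose and 1 fell, 26.7% called and near the 21.8% of all genes, with the transferrin receptor Tfrc 0.80 ± 0.22 higher. Of 36 transcription factors and core genes of macrophages 8 rose and 5 fell, with Batf2 at 1.84 ± 0.31 and Batf at 1.15 ± 0.14.

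Some single genes outside the lists differed widely. Ly6e, an interferon-responsive surface protein, stood at 2013 ± 194 CPM in KO and 280 ± 63 CPM in WT (2.85 ± 0.24). Lyz1, a lysozyme gene, stood at 5365 ± 1282 against 1325 ± 162 CPM (2.02 ± 0.23), while its near copy Lyz2 was not called, and reads shared by the pair make the split uncertain. Cd226, an activating receptor of lymphocytes, stood at 41.7 ± 12.7 against 2.78 ± 0.80 CPM (3.91 ± 0.32). Nrcam and Pcdh7, which encode adhesion molecules known from neurons, stood at 0.246 ± 0.128 against 19 ± 11.4 CPM and at 2.27 ± 1.52 against 64.6 ± 20.6 CPM. Myh15, a myosin heavy chain, had 0, 2, 0 and 0 raw counts in KO and 1069, 404, 361 and 357 in WT.

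Of 18 dendritic cell markers 5 were higher and 1 lower, 33.3% called against 21.8% of all genes. Their summed level was lower in KO without overlap (1199 to 1465 CPM against 1590 to 2033 CPM in WT). The lower one, Sirpa, named after its values were seen and also expressed by macrophages, held most of the sum at 1042 ± 110 against 1649 ± 186 CPM. Of 7 mast cell and basophil markers 1 was lower, with sums of 1.03 to 42.6 CPM in KO and 22.6 to 124 CPM in WT and Mcpt8 at 0 in all 8 libraries. Of 6 eosinophil markers 2 were lower, and Epx was at 0. None of the 3 erythrocyte and platelet markers and none of the 4 sex-linked genes tested was called.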
